A study of Mus musculus with 12 samples.

Results

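Transcripts of 10 transcription factor genes were followed, 4 of the CCAAT/enhancer-binding protein (C/EBP) family (Cebpa, Cebpb, Cebpd and Cebpg) and 6 of the Kruppel-like factor (KLF) family (Klf2, Klf4, Klf5, Klf6, Klf9 and Klf15). They were picked by gene symbol out of 18539 genes listed in at least 1 of 3 tables, of which 16111 are listed in all 3, and all 10 are among these. The cells were C2C12 myotubes (differentiated from an established mouse myoblast line), primary adipocytes (differentiated in culture from subcutaneous preadipocytes of neonatal C57BL6/J pups) and primary hepatocytes (from livers of young adult male C57BL6/J mice). In each cell type 1 poly(A) RNA library was made for each of 4 conditions, 12 libraries in all. These were olanzapine with calcifediol, olanzapine with calcitriol, olanzapine alone and the DMSO vehicle.

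Olanzapine, an atypical antipsychotic, was used at 1 μM. Calcifediol, the circulating form of vitamin D, was used at 10 μM and calcitriol, its hormonally active form, at 0.1 μM. Cells were exposed to the vitamin D metabolite for 24 h and then for a further 12 h together with olanzapine, and vehicle cultures had 36 h of vehicle. Hepatocyte medium contained dexamethasone throughout, the adipocytes had received dexamethasone and hydrocortisone during differentiation only, and no glucocorticoid is given for the C2C12 medium. Levels are in CPM, counts scaled to the library total, and in TPM, which is also scaled to gene length, where genes of different length are set side by side.

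C/EBP proteins bind DNA as dimers through a basic leucine zipper, and C/EBPβ and C/EBPδ act early in fat cell differentiation, before C/EBPα, which with PPARγ maintains the adipocyte programme. C/EBPα and C/EBPβ also drive metabolic and acute-phase genes in liver. KLF proteins carry zinc fingers that recognise GC-rich and CACCC elements, and Klf9 and Klf15 are known as glucocorticoid-responsive members, while Klf2, Klf4 and Klf6 respond quickly to outside stimuli.

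Upstream sequence is shown for 5 of the 7 genes that passed the test for vitamin D metabolites in C2C12 cells given further on, 4 that were higher (Cebpa, Cebpb, Klf9 and Klf15) and 1 that was lower (Klf6). Each run is the 250 bases before a start given by RefSeq on GRCm38.p6, read on the plus strand, which is the coding strand of all 5. For Klf15 that start lies inside the annotated gene, which begins upstream of it at position 90461043, and for the other 4 it is the start of the gene. The windows lie at chr7:35119043-35119292, chr2:167688665-167688914, chr19:23140976-23141225, chr6:90462326-90462575 and chr13:5861239-5861488. Capitals mark matches, on either strand, to GGGCGG (GC box), CACCC (the KLF element), TGACG (core of the cAMP response element), CCAAT and TATAA, and neighbouring matches can overlap.
Cebpa: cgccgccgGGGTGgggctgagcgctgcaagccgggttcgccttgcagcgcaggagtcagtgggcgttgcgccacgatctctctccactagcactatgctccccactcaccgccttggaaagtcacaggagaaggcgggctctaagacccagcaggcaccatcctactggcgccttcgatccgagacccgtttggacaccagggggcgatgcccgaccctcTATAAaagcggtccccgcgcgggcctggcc
Cebpb: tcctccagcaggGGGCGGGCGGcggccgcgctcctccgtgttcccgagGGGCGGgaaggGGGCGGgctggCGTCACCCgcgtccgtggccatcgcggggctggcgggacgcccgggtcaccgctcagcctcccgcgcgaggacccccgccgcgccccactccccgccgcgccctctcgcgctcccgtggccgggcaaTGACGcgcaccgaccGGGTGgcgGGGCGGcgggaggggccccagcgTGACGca
Klf9: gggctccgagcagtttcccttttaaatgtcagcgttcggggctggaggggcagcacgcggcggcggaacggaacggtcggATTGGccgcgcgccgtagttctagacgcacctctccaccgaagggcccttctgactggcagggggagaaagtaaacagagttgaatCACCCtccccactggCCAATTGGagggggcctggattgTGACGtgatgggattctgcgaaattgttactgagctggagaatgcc
Klf15: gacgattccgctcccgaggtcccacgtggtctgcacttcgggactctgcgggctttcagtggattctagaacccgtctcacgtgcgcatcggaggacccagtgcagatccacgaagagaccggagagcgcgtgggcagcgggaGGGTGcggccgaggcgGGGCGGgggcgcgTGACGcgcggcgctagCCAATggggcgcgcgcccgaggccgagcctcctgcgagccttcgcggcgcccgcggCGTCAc
Klf6: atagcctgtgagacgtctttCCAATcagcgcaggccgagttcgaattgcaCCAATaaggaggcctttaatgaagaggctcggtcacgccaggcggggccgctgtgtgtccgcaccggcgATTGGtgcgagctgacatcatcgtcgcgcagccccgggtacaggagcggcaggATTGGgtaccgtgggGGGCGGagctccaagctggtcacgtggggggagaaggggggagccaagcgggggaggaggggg

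The window of Cebpb was the richest in GC boxes, with 5 matches, and held 2 CACCC and 3 TGACG matches. Cebpa had 1 CACCC match and 1 TATAA match but no GC box. CACCC matched in Cebpa, Cebpb, Klf9 and Klf15, and also in Klf2, which did not pass the test. The window of Klf6 held no CACCC match but 4 CCAAT matches and 1 GC box. Klf9 held 3 CCAAT matches, 1 CACCC and 1 TGACG. Of the 10 genes 8 had an entry in the table of starts, Cebpd and Klf5 being the others. Among these 8, a GC box was found in 5 (32.7% of all 32851 windows of this length), CACCC in 5 (52.0%), TGACG in 5 (17.8%), CCAAT in 4 (33.8%) and TATAA in 3 (22.8%). Searched on both strands in the same way, the E box CACGTG matched in 3 (6.02%), the C/EBP core motif TTGCG in 1, Cebpa (14.5%), and neither the nuclear receptor core AGGTCA (14.0%) nor the glucocorticoid receptor core AGAACA (16.1%) in any. The GC content of the printed windows was 66.4% for Cebpa, 81.6% for Cebpb, 59.6% for Klf9, 72.0% for Klf15 and 64.8% for Klf6, against a median of 52.4% over all windows.

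Libraries held 15641438 to 19348345 counts. The labelled cell types had their defining transcripts: 7 muscle markers summed to 17547 to 18729 CPM in C2C12 libraries, 7 adipocyte markers to 13710 to 15707 CPM in adipocytes and 7 hepatocyte markers to 72259 to 76578 CPM in hepatocytes. Macrophage markers summed to 325 to 456 CPM in hepatocytes, and fibroblast and preadipocyte markers to 9649 to 11625 CPM in adipocytes. Cyp24a1, the vitamin D 24-hydroxylase, had 6193 and 9096 counts in C2C12 cells with calcifediol and calcitriol, against 0 counts in the olanzapine library. In adipocytes it had 661 and 579 counts in the same order, also against 0 counts in the olanzapine library. In these bulk libraries, fewer cells of a type and less RNA per cell cannot be told apart. Of the 10 genes 3 overlap others in the annotation, Cebpd with Spidr by 322 bp, Cebpg with Gm45095 by 1084 bp and Klf9 with Mir1192 by 121 bp, and whether the counting used strand is not given in the sources used here.

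Summed TPM of the 4 C/EBP genes was highest in adipocytes and that of the 6 KLF genes in C2C12 cells, other members of either family being left out of the sums. The 4 C/EBP genes together reached 90.8 to 250 TPM in C2C12 cells, 1211 to 1362 TPM in adipocytes and 314 to 391 TPM in hepatocytes. Cebpa, the factor that maintains the adipocyte state, made up 66.2% to 71.1% of this sum in adipocytes, and 6.99% to 11.2% in C2C12 cells and 18.6% to 24.3% in hepatocytes. Cebpb made up 68.7% to 77.7% in C2C12 cells, 25.4% to 30.3% in adipocytes and 66.2% to 73.7% in hepatocytes. The 6 KLF genes together ranged from 289 to 361 TPM in C2C12 cells, 156 to 172 TPM in adipocytes and 150 to 167 TPM in hepatocytes. The most abundant of these 6 was Klf2 in C2C12 cells (32.0% to 34.9% of their sum), Klf15 in adipocytes (52.9% to 57.9%) and Klf6 in hepatocytes (60.3% to 63.7%).

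**Figure D1:**
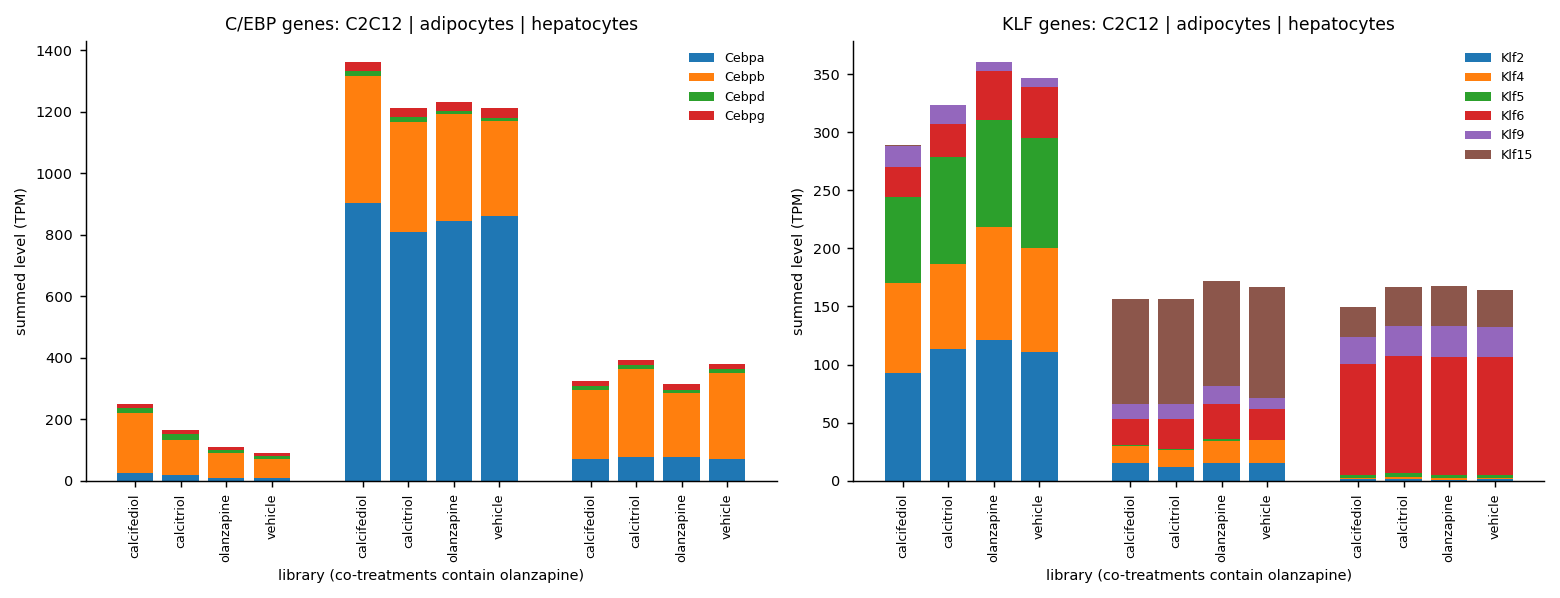
Summed TPM of the 4 C/EBP genes (left) and 6 KLF genes (right) in each of 12 libraries, 1 bar per library, with C2C12, adipocyte and hepatocyte libraries from left to right. C/EBP sums were highest in adipocytes (1211 to 1362 TPM), where Cebpa dominates, and KLF sums were highest in C2C12 cells (289 to 361 TPM), where Klf15 is almost absent.

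Cell types were compared in an edgeR model with terms for cell type and treatment, in which the 4 conditions of a cell type stand in for replicates. The model scales libraries by TMM factors and not by the total alone. Its log2 differences can therefore depart from the ratios of the mean CPM given beside them. Of the 10 genes, 7 differed between C2C12 cells and adipocytes (78.3% of 13714 genes tested did so), all 10 between C2C12 cells and hepatocytes (80.9%) and 8 between adipocytes and hepatocytes (77.9%). Shares this close to the background say little about these genes as a set, and the sizes are given for each. Cebpa averaged 20.0 ± 10.7 CPM in C2C12 cells, 1149 ± 80.0 CPM in adipocytes and 115 ± 3.77 CPM in hepatocytes (SD over the 4 conditions), and its log2 difference between C2C12 cells and adipocytes was -6.22 (SE 0.29, adjusted p = 1.1e-08). Cebpb averaged 84.7 ± 43.5 CPM in C2C12 cells, 268 ± 35.8 CPM in adipocytes and 219 ± 32.8 CPM in hepatocytes. It was lower in C2C12 cells than in either primary culture, and adipocytes and hepatocytes did not differ beyond their spread (log2 difference 0.19, SE 0.22, adjusted p = 0.45). Cebpg, a partner that lacks an activation domain of its own, averaged 27.3 ± 3.15 CPM in C2C12 cells, 72.4 ± 4.26 CPM in adipocytes and 46.7 ± 3.42 CPM in hepatocytes, with no overlap between cell types. Cebpd was the most even, at 15.8 ± 6.23 CPM in C2C12 cells, 16.1 ± 5.34 CPM in adipocytes and 16.7 ± 1.21 CPM in hepatocytes, and its ranges overlapped in all 3 pairs. In the TMM-scaled model Cebpd was lower in C2C12 cells than in hepatocytes (log2 difference -0.53, SE 0.18, adjusted p = 0.019), while its mean CPM were close. This difference did not pass without the vehicle libraries (adjusted p = 0.13) or without the olanzapine libraries (adjusted p = 0.075).

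Klf2 and Klf4 had the same order across the cells, highest in C2C12 cells and lowest in hepatocytes. Klf2, known for keeping endothelial cells and T cells quiescent, averaged 99.4 ± 11.4 CPM in C2C12 cells, 13.1 ± 1.78 CPM in adipocytes and 1.25 ± 0.31 CPM in hepatocytes. Klf4, one of the reprogramming factors of pluripotency, averaged 131 ± 18.8 CPM in C2C12 cells, 26.6 ± 4.18 CPM in adipocytes and 2.51 ± 0.26 CPM in hepatocytes. Klf5, which is active in proliferating epithelium and smooth muscle, averaged 76.1 ± 8.43 CPM in C2C12 cells, 0.571 ± 0.49 CPM in adipocytes and 2.98 ± 0.59 CPM in hepatocytes, a log2 difference of 6.75 (SE 0.29, adjusted p = 5.0e-09) between C2C12 cells and adipocytes. Klf15, a regulator of amino acid catabolism and gluconeogenesis, went the other way, at 0.633 ± 0.42 CPM in C2C12 cells, 114 ± 5.07 CPM in adipocytes and 45.9 ± 4.64 CPM in hepatocytes, and its log2 difference between C2C12 cells and adipocytes was -7.77 (SE 0.25, adjusted p = 6.5e-10). Klf6 averaged 76.0 ± 20.8 CPM in C2C12 cells, 57.2 ± 5.23 CPM in adipocytes and 253 ± 4.68 CPM in hepatocytes. Klf9 averaged 20.8 ± 8.50 CPM in C2C12 cells, 21.2 ± 3.13 CPM in adipocytes and 48.8 ± 2.41 CPM in hepatocytes. Both were higher in hepatocytes than in the other cells. In the TMM-scaled model neither Klf6 (adjusted p = 0.48) nor Klf9 (adjusted p = 0.15) differed between C2C12 cells and adipocytes beyond its spread.

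**Figure D2:**
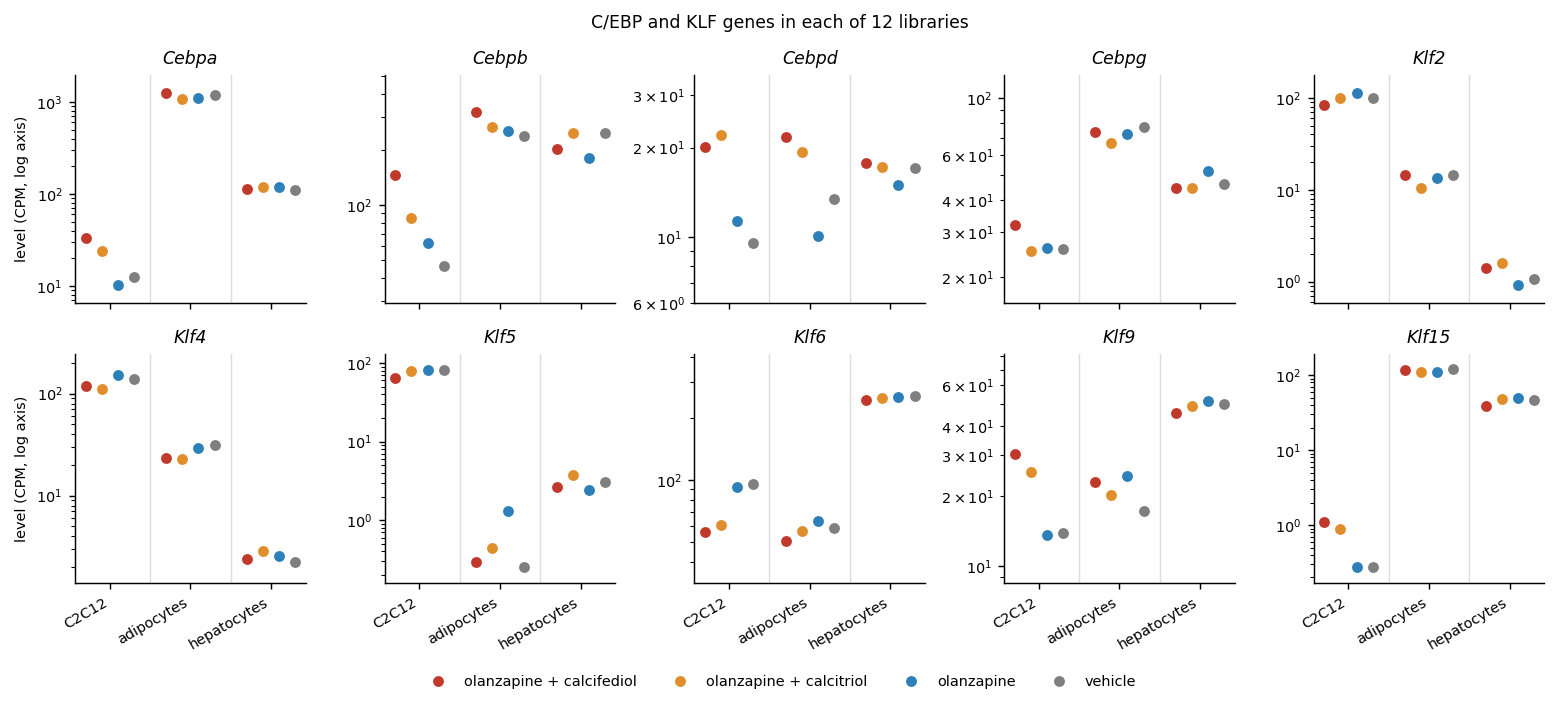
CPM of each gene in each of the 12 libraries, on log axes, with 1 point per library coloured by treatment and cell types separated by grey lines. In C2C12 cells the calcifediol and calcitriol points of Cebpa, Cebpb, Cebpd, Klf9 and Klf15 lie above those of olanzapine alone and vehicle, and those of Klf4 and Klf6 lie below.

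Treatments were then compared within a cell type, library against library, by the test the study used, that of Audic and Claverie, over genes with at least 1 TPM in any library of the cell type, with a call at a fold change of at least 2 and a false discovery rate (FDR) of at most 0.05. With 1 library per condition this test compares libraries, not conditions, and the 95% intervals given with each log2 ratio cover counting error only. Both co-treatments were set against the same olanzapine library, so their ratios are not independent. The labels do not say whether the libraries of a cell type came from separate cultures or animals, and the p-values of the models measure only the spread between these libraries.

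In C2C12 cells, Cebpa, Cebpb and Klf9 were called higher with calcifediol and none of the 10 was called lower. That is 3 of 9 genes tested, where 5.28% of all genes were called higher and 11.6% in either direction. Because the genes were chosen with earlier results of these data known, such shares are a description only. Klf15 was not tested, because it had less than 1 TPM in every C2C12 library. Cebpa had 33.2 CPM with calcifediol and 24.0 CPM with calcitriol, against 10.4 CPM with olanzapine alone and 12.4 CPM with vehicle. Its log2 ratio to olanzapine alone was 1.68 (1.44 to 1.93) with calcifediol and 1.21 (0.96 to 1.47) with calcitriol, both called. Against vehicle the calcitriol ratio was 0.95, which is no call. The levels with the metabolites lay above both others, though still far under the adipocyte range. With calcitriol Cebpa was the 1 gene called of 9 tested, where 4.43% of all genes were called higher and 8.36% in either direction.

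Cebpb had 146 CPM with calcifediol, 84.6 CPM with calcitriol, 61.8 CPM with olanzapine alone and 46.7 CPM with vehicle. It is the most abundant of the 10 genes in C2C12 cells by TPM averaged over the 4 libraries, but not in each library. Cebpb was at 62.4 TPM with vehicle, below Klf2 (111), Klf5 (94.7) and Klf4 (88.9), and below these genes with olanzapine alone as well. Its log2 ratio to olanzapine alone was 1.24 (1.13 to 1.34) with calcifediol, a call, and 0.45 (0.34 to 0.57) with calcitriol, under the threshold. The vehicle library was lower than the olanzapine library, with a log2 ratio of olanzapine to vehicle of 0.40 (0.27 to 0.53).

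Klf9, a target of glucocorticoid and thyroid hormone receptors, had 30.4 CPM with calcifediol and 25.5 CPM with calcitriol, against 13.5 CPM with olanzapine alone and 13.8 CPM with vehicle. Its log2 ratio was 1.17 (0.95 to 1.39) with calcifediol, called, and 0.91 (0.69 to 1.14) with calcitriol, not called. The metabolite libraries did not overlap the other pair, which differed by less than counting error. Cebpd, the early adipogenic and acute-phase factor, had 20.1 CPM with calcifediol and 22.0 CPM with calcitriol, against 11.3 CPM with olanzapine alone and 9.56 CPM with vehicle. Its log2 ratios of 0.83 (0.58 to 1.09) and 0.96 (0.71 to 1.21) both stayed under the fold threshold, while against vehicle both were called, at 1.07 with calcifediol and a higher ratio with calcitriol. Klf15 had 19 counts with calcifediol and 16 with calcitriol, against 5 with olanzapine alone and 5 with vehicle, and its log2 ratios of 1.86 (0.49 to 3.74) and 1.57 (0.15 to 3.47) have wide intervals.

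Of the remaining genes Klf6, an immediate-response factor, moved down furthest without a call. It had 56.0 CPM with calcifediol and 60.4 CPM with calcitriol, against 92.6 CPM with olanzapine alone and 95.3 CPM with vehicle, with log2 ratios of -0.73 (-0.84 to -0.61) and -0.62 (-0.73 to -0.51). Klf4 had 120 CPM with calcifediol and 111 CPM with calcitriol, against 153 CPM with olanzapine alone and 138 CPM with vehicle. In both genes the metabolite libraries lay below the other pair. Klf2 had log2 ratios of -0.41 and -0.16, Klf5 of -0.35 and -0.05, and Cebpg of 0.30 and -0.04, with calcifediol and calcitriol in this order. Olanzapine against vehicle gave no call among the 9 genes tested in C2C12 cells, where 0.313% of all genes were called.

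**Figure D3:**
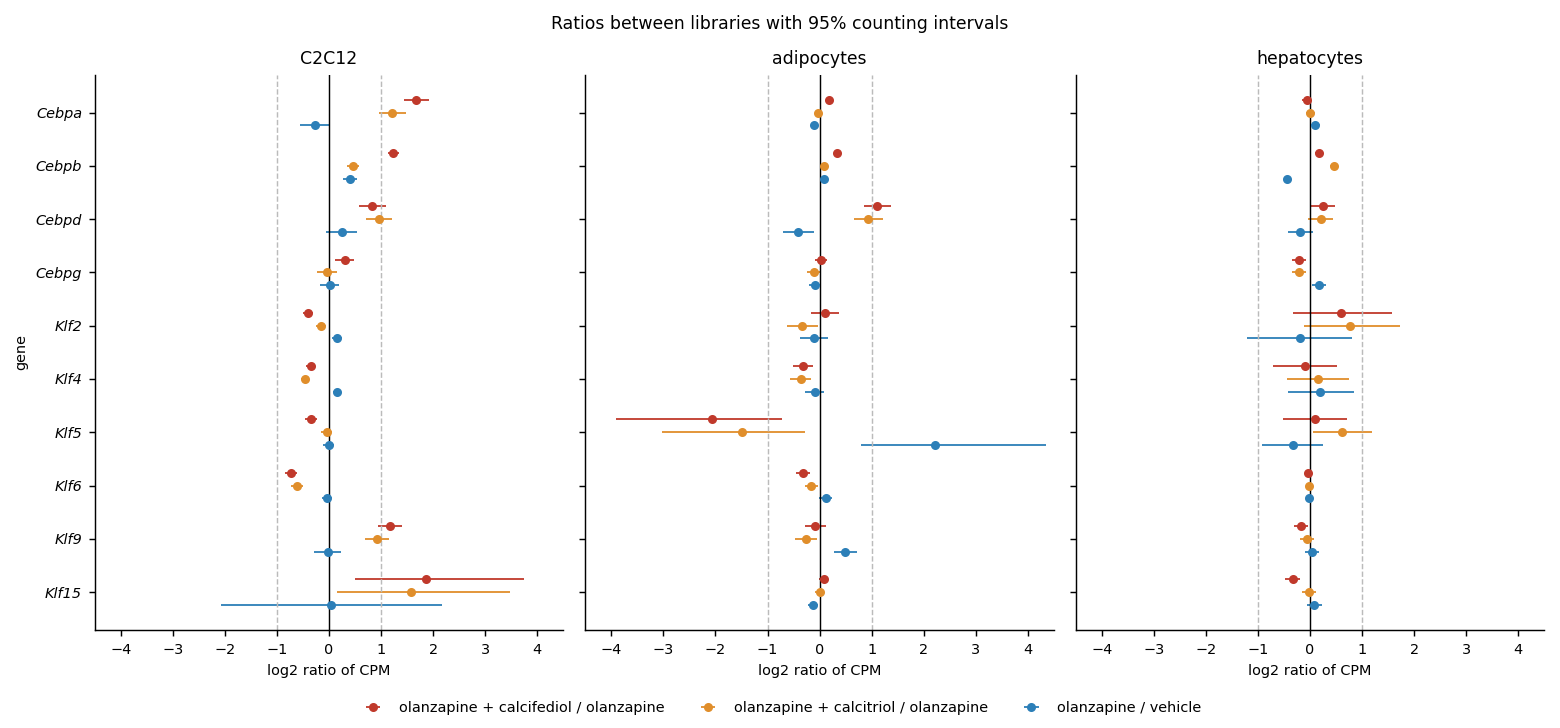
Log2 ratio of CPM between libraries for each gene, with 95% counting intervals as bars, in C2C12 cells, adipocytes and hepatocytes. Dashed lines mark a fold change of 2, and the co-treatment points of Cebpa in C2C12 cells (1.68 and 1.21) and of Cebpd in adipocytes (1.11 and 0.93) stand apart from those of olanzapine against vehicle. All these ratios share the olanzapine library, which was the lowest of its cell type for both genes, so part of that gap is built in.

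In adipocytes, 9 of the 10 genes had at least 1 TPM in every library, and Cebpd was the 1 of these 9 called with calcifediol, where 1.52% of all genes were called. Cebpd had 21.8 CPM with calcifediol and 19.3 CPM with calcitriol, against 10.1 CPM with olanzapine alone and 13.4 CPM with vehicle. Its log2 ratio to olanzapine alone was 1.11 (0.84 to 1.38) with calcifediol and 0.93 (0.66 to 1.21) with calcitriol, and against vehicle the calcifediol ratio was 0.70, under the threshold, since the olanzapine library was the lowest of the 4. Klf5 had 5 counts with calcifediol and 7 with calcitriol, 22 with olanzapine alone and 4 with vehicle. It passed the TPM filter through the olanzapine library only and had 0.297 TPM with vehicle. That it met the thresholds, as lower with calcifediol and higher with olanzapine, rests on that library and is not counted here. No gene of the 10 was called with calcitriol, where 0.974% of all genes were called, and none of the 9 with olanzapine against vehicle, where 1.22% were called. Klf9 had 23.0 CPM with calcifediol, 20.2 CPM with calcitriol, 24.3 CPM with olanzapine alone and 17.3 CPM with vehicle, so its highest library was olanzapine alone, with a log2 ratio to vehicle of 0.49 (0.27 to 0.72). Cebpa, which reached 1070 to 1243 CPM in these cells, had log2 ratios of 0.18 and -0.04 to olanzapine alone with calcifediol and calcitriol.

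In hepatocytes none of the 10 genes was called in any comparison, where 0.566% of all genes were called with calcifediol, 0.702% with calcitriol and 0.356% with olanzapine against vehicle. The greatest departure among the abundant genes was that of Cebpb, which had 202 CPM with calcifediol and 247 CPM with calcitriol, against 181 CPM with olanzapine alone and 246 CPM with vehicle. Its log2 ratio was 0.45 (0.39 to 0.51) with calcitriol against olanzapine and -0.44 (-0.51 to -0.38) with olanzapine against vehicle, so the olanzapine library was the low one. Klf15 had 39.2 CPM with calcifediol, 48.7 CPM with calcitriol, 49.3 CPM with olanzapine alone and 46.6 CPM with vehicle. Klf6, the most abundant of the 6 KLF genes in hepatocytes, stayed between 246 and 257 CPM. In the hepatocyte library with calcitriol, 5 of 8 tested adipocyte target genes of C/EBPα and PPARγ were called higher, and Adipoq and Retn had 33 counts each, against 0 in the olanzapine library. The part of these adipocyte transcripts in the values of this library was not tested.

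A second model put both metabolite libraries of a cell type against its olanzapine and vehicle libraries, 2 against 2, with 1 estimate of the spread for each gene over all 3 cell types (edgeR, Benjamini-Hochberg adjustment over 13714 genes). Its libraries are not replicates of a condition: the metabolites differ in dose, and differences between calcifediol and calcitriol, and between olanzapine and vehicle, enter the error. These values use the same libraries as the ratios above and are no separate evidence.

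In C2C12 cells 7 of the 10 genes passed, where 23.2% of all genes did. The 10 genes were chosen with earlier results of these data known, so their share is a description and no test of the set. Of these, 5 rose (11.5% of all genes rose) and 2 fell (11.7% fell). Cebpa rose by 1.30 on the log2 scale (SE 0.15, adjusted p = 2.5e-05), and Klf15, at few counts, by 1.79 (SE 0.40, adjusted p = 0.0045). Cebpb rose by 1.06 (SE 0.22, adjusted p = 0.0023), Klf9 by 1.01 (SE 0.15, adjusted p = 0.00019) and Cebpd by 0.99 (SE 0.15, adjusted p = 0.00018). Klf6 fell by 0.71 (SE 0.09, adjusted p = 6.6e-05). Klf4 fell by 0.35 (SE 0.09, adjusted p = 0.010), and it did not pass without the C2C12 olanzapine library (adjusted p = 0.14) or with limma (adjusted p = 0.062). For Cebpb the log2 difference ranged from 0.63 to 1.40 over 16 alternatives, all of which passed. Cebpg (0.12), Klf2 (-0.22) and Klf5 (-0.21) did not pass.

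In adipocytes 1 of the 10 genes passed, Cebpd, with a log2 difference of 0.85 (SE 0.15, adjusted p = 0.036), where 0.16% of all genes did. This call held under 6 of 16 alternatives, and the adjusted p ranged from 0.0022 to 0.50. It was lost without any 1 of 9 libraries: C2C12 olanzapine and vehicle, all of the adipocyte libraries but vehicle, and all 4 hepatocyte libraries. In hepatocytes none of the 10 passed the edgeR test, where 0% of all genes did. At an unadjusted p under 0.05, 0 of the 10 and 488 of all genes stood there, and of all genes DESeq2 called 10 and limma 37, none of them among the 10 followed here. Averaged over the 3 cell types, 6 of the 10 genes passed, where 5.04% of all genes did: Cebpa, Cebpb, Cebpd, Klf9 and Klf15 rose and Klf6 fell. Of these Cebpa, Cebpd and Klf6 passed under all 16 alternatives, Cebpb under 8, and Klf9 and Klf15 under 7 each. For all of these genes but Cebpd the average came mainly from C2C12 cells. In C2C12 cells, adipocytes and hepatocytes in turn, the log2 difference was -0.71, -0.14 and -0.03 for Klf6 and 1.06, 0.30 and 0.08 for Cebpb. That of Cebpd was 0.99, 0.85 and 0.13. The log2 difference of Klf15 was 1.79 in C2C12 cells, 0.02 in adipocytes and -0.12 in hepatocytes, that of Klf9 1.01, 0.10 and -0.09 in the same order, and that of Cebpa 1.30, 0.07 and 0.02.

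**Figure D4:**
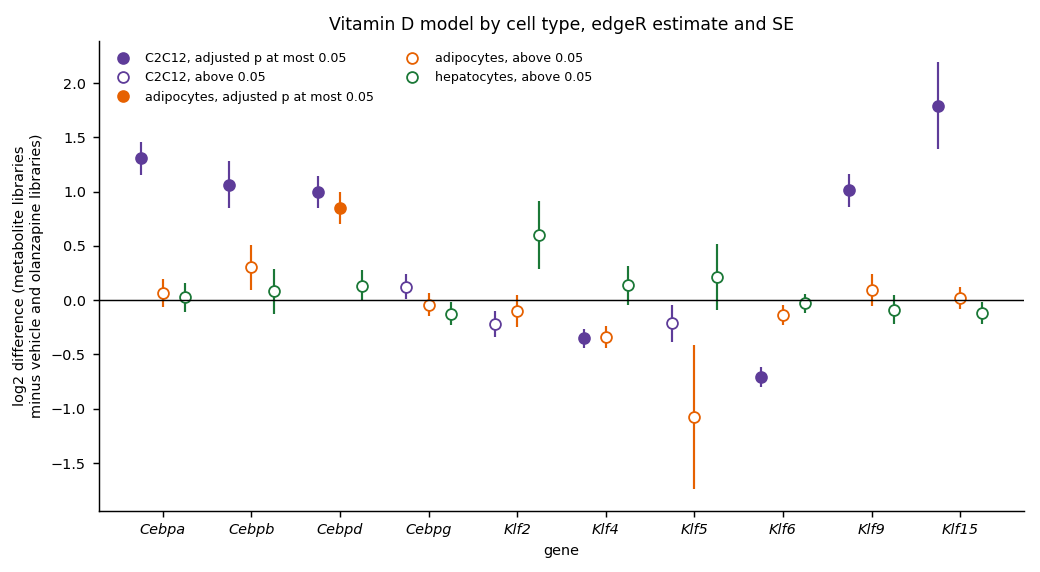
Log2 difference of the metabolite libraries from the olanzapine and vehicle libraries for each gene and cell type, with the SE as bars and filled points at an adjusted p of at most 0.05 (edgeR). Filled points are 7 in C2C12 cells, from -0.71 for Klf6 to 1.79 for Klf15, and 1 in adipocytes, Cebpd at 0.85.

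The difference in response between cell types was tested directly. Between C2C12 cells and adipocytes it passed for 4 of the 10 genes, where 9.38% of all genes passed: Cebpa (log2 difference of the responses 1.24, SE 0.20, adjusted p = 0.0011), Klf15 (1.77), Klf9 (0.92) and Klf6 (-0.57). Of these 4, Cebpa alone passed under all 16 alternatives. Over the 16, the difference ranged from 1.63 to 1.91 for Klf15, 0.63 to 1.15 for Klf9 and -0.67 to -0.48 for Klf6. Between C2C12 cells and hepatocytes it passed for 5, where 7.78% passed: Cebpa (1.28, SE 0.20, adjusted p = 0.0013), Klf15 (1.91), Klf9 (1.10), Cebpd (0.86) and Klf6 (-0.68). Cebpd and Klf15 did not pass under all of the 16 alternatives, over which the difference ranged from 0.74 to 0.98 for Cebpd and from 1.76 to 2.06 for Klf15. Between adipocytes and hepatocytes it passed for none, where 0.0365% passed, and 2 of the 10, and 583 of all 13714 genes, had an unadjusted p under 0.05 by edgeR, while DESeq2 and limma called none of the 10. For Cebpb the difference in response missed the threshold in both tests with C2C12 cells (0.76, adjusted p = 0.14, against adipocytes and 0.98, adjusted p = 0.061, against hepatocytes).

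Treatment effects shared by the 3 cell types were not found for any of the 10 genes by the edgeR model with cell type and treatment, where 0.0146% of all genes passed with calcifediol, 0.0583% with calcitriol and 0% with olanzapine. Responses that differ between cell types enter the error of this model, unlike that of the average over cell types above. For Cebpa the SE was 0.28 with calcifediol here and 0.08 for that average. At an unadjusted p under 0.05 there were 4 of the 10 genes with calcifediol (1513 of all 13714 genes), 2 with calcitriol (562) and 0 with olanzapine (78), and DESeq2 and limma called none of them.

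Known targets and relatives of these factors were read in the same C2C12 model, as counts beside the 11.5% of all genes that rose and 11.7% that fell. The lists were chosen with earlier results of these data known, so the counts are a description and no test of a list. Of 10 adipocyte target genes of C/EBPα and PPARγ, 7 were tested, and 3 rose and none fell. Lpl, lipoprotein lipase, had 200 CPM with calcifediol and 103 CPM with calcitriol, against 14.4 CPM with olanzapine alone and 12.8 CPM with vehicle. Fabp4, the fatty acid carrier of fat cells, had 86 counts with calcifediol and 40 with calcitriol, against 0 with olanzapine alone, at least 29.4-fold and 13.2-fold higher when 3 counts are set for the olanzapine library. Slc2a4, the insulin-responsive glucose transporter, had 46 and 48 counts with the metabolites in this order, against 10. Adipoq had 1 count with calcifediol and none in the other 3 C2C12 libraries. Pparg, the partner of Cebpa in adipocytes, rose by 1.21 on the log2 scale (SE 0.20, adjusted p = 0.00047), with 279 counts with calcifediol and 189 with calcitriol, against 95 with olanzapine alone and 110 with vehicle. On the list of 10 adipogenic transcription factors it belongs to, it was the 1 that rose, Egr2, Zfp423, Ebf1 and Srebf1 fell, and the median log2 difference was -0.20. Of 10 liver target genes of C/EBP, 4 were tested, 1 rose and 0 fell, and the median log2 difference was -0.18.

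Of 10 inflammatory target genes of C/EBPβ and C/EBPδ, 9 were tested in this model, and C3, Hp, Orm1 and Orm2 rose and none fell. In the pairwise test 6 were tested. With calcifediol 4 were called higher and 1 lower, where 5.28% of all genes were called higher and 6.29% lower. With calcitriol 3 were called higher and 0 lower (4.43% and 3.93% of all genes). C3, the central complement component, had 5046 counts with calcifediol and 1679 with calcitriol, against 2 with olanzapine alone and 1 with vehicle, and its log2 ratio to olanzapine alone was 11.01 (9.48 to 14.38) with calcifediol. Il6, Saa3 and Lcn2, also on this list, had at most 10 counts in any C2C12 library. Orm1 was low as well, with 9 counts with calcifediol against 0 with olanzapine alone. Of 8 KLF15 target genes 6 were tested, and the muscle ubiquitin ligases Trim63 (log2 difference 0.95, SE 0.17) and Fbxo32 (0.59, SE 0.16) rose. Of 10 glucocorticoid-responsive genes Ddit4 and Mt2 rose and Fkbp5, Per1 and Sgk1 fell, so the list moved both ways. Of 11 other KLF genes 7 were tested, and Klf10 fell by 1.02 (SE 0.13), Klf13 by 0.42 and Klf16 by 0.46. Among other C/EBP relatives Ddit3, a stress-induced dimer partner, rose by 1.54 (SE 0.29, adjusted p = 0.0014), and had 50.9 CPM with calcifediol and 20.6 CPM with calcitriol, against 13.1 CPM with olanzapine alone and 11.0 CPM with vehicle. Of 8 partners and regulators, Trib2 fell by 1.94 and Id2 by 1.53, and Trib3 rose by 1.85. In adipocytes and hepatocytes none of the genes on these lists passed in this edgeR model, where 0.16% and 0% of all genes did. In the pairwise test of adipocytes with calcifediol, 1 KLF15 target and 1 inflammatory target were called higher and 1 liver target lower. With calcitriol 1 KLF15 target was called higher. Of all genes, 0.746% were called higher and 0.771% lower with calcifediol, and 0.517% higher with calcitriol.

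Markers of other cells were read beside these values. In C2C12 cells, 7 muscle markers gave no pairwise call with either metabolite, and in the model Myog fell by 0.61 and the other 6 did not pass. Of the adipocyte markers listed in the C2C12 table, 4 of 7, only Fabp4 was above 1 count in any library, and their sum ranged from 0 to 4.99 CPM. Macrophage markers summed to 7.88 to 14.3 CPM in C2C12 libraries, highest with calcifediol, and Cd68 rose by 1.38 on the log2 scale. Fibroblast and preadipocyte markers summed to 5686 CPM with calcifediol and 6199 CPM with calcitriol, against 4272 CPM with olanzapine alone and 3986 CPM with vehicle, and of 6 tested Dcn rose by 0.49. Endothelial markers summed to 2.58 and 3.22 CPM with the metabolites in this order, against 1.29 CPM with olanzapine alone and 1.30 CPM with vehicle. Their part in the results was not tested.

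The genes whose levels were most like those of the called genes are given as a description, over the 12 libraries, after the mean of each cell type was taken from log2 CPM, among 10682 genes. For Cebpa they were Id3 (r = 0.995), Osbpl9 (0.988) and Selenop (0.987). For Cebpb they were Mknk2 (0.983), Cyp4f13 (0.977) and Rusc2 (0.967), and for Cebpd Adamtsl5 (0.982), Dapk2 (0.967) and Slc45a3 (0.967). For Klf9 they were Mctp2 (0.990), Mmp16 (0.977) and Ddit4 (0.968). The points share libraries and depth.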

How the data were processed

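Poly(A) RNA of 12 libraries was sequenced by the study, 1 library for each of 4 conditions in 3 cell types. The submitters' processing notes name HISAT, Bowtie2 and RSEM and the build GRCm38.p6. The authors deposited expected counts and FPKM for each gene and library. The expected counts were rounded to whole numbers and scaled to CPM, and the deposited FPKM values were rescaled to TPM. The 12 deposited TPM columns were not used. The 3 tables hold 16908 genes (C2C12) and 17742 genes (adipocytes and hepatocytes), and gene symbols turned into dates were restored (23 or 24 a table). Library totals were 15641438 to 19348345, and with 1 library per condition the 95% intervals (exact Clopper-Pearson) cover counting error only.

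Genes of at least 1 TPM in any library of a cell type were compared by the test of Audic and Claverie, with a pseudocount of 0.5 in the ratio, a fold change of at least 2 and an FDR of at most 0.05. Models across 13714 genes used edgeR 4.0.16 (quasi-likelihood test, TMM factors) in R 4.3.3, and the SE is the log2 difference over the root of F. Alternatives used DESeq2 1.42.0, limma 3.58.1, other scalings, filters and thresholds, and left out libraries in turn. Python 3.11.15 was used otherwise. Scripts were tested on simulated data. The genes named are all 10 followed, members of each fixed list that were called or had the largest ratios, and defining markers. For each gene with a pairwise call counted here, the 3 genes most like it are named too. The members and lists were chosen with earlier results of these data known.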

Additional observations from a re-analysis of the deposited data

Results flagged for a closer look

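In C2C12 cells the calcifediol library stood apart from the other 3 for 2 genes, by the gap to the nearest library relative to the range of the 4. Cebpg was at 32.0 CPM there, the highest, and Klf5 at 63.6 CPM, the lowest. With 30 gene and cell type groups tested in this way, chance marks about 1 in 20.

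The response to the vitamin D metabolites differed between cell types by a test of the difference itself (edgeR, adjusted over 13714 genes). Between C2C12 cells and adipocytes the log2 differences were 1.24 for Cebpa, -0.57 for Klf6, 0.92 for Klf9 and 1.77 for Klf15. Between C2C12 cells and hepatocytes they were 1.28 for Cebpa, 0.86 for Cebpd, -0.68 for Klf6, 1.10 for Klf9 and 1.91 for Klf15. Cebpa passed under all 16 alternatives in both comparisons, and Klf6 and Klf9 in that with hepatocytes only. Cebpd and Klf15 did not pass under all.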

How the results depend on the processing

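No paired analysis was possible because each condition has 1 library and the labels carry no replicate numbers that pair libraries, beyond the model with cell type as a term, which compares treatments within cell types. Of the 10 genes, C2C12 calls with calcifediol numbered 5 at a fold change of at least 1.5, where 1286 of 12124 genes were called higher and 1331 lower. With calcitriol the C2C12 calls numbered 2 with TPM, where 571 genes were called higher and 417 lower. They numbered 3 with scaling to Rplp0 (711 and 323) and 4 at a fold change of at least 1.5 (1022 and 1049). Adipocyte calls with calcifediol, 2 with Klf5 included, numbered 1 with scaling to Rplp0, where 45 of 11804 genes were called higher and 386 lower. That call was Klf5, and Cebpd fell under the fold threshold. At a TPM of at least 10 they numbered 1, Cebpd (15 genes higher and 7 lower). Against vehicle they numbered 0 (57 and 123), and the log2 ratio of Klf5 was 0.15. With calcitriol the adipocyte calls numbered 1 with scaling to Rplp0, again Klf5 (52 and 135). At a fold change of at least 1.5 they numbered 1, Cebpd (108 and 137). With olanzapine, 1 with Klf5 included, they numbered 0 at a TPM of at least 10 (1 and 19). With limma the adipocyte model called 0. The cause was not tested.

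Leaving out each library in turn, the metabolite model called 6 to 8 genes in C2C12 cells, 0 to 1 in adipocytes, 3 to 6 averaged over cell types, 1 to 5 for C2C12 cells against adipocytes and 3 to 6 for C2C12 cells against hepatocytes. The number of all genes called also changed widely between these fits, and each fit leaves 1 library in a group. The ranges for the genes followed here therefore cannot be read alone and are a description only. With scaling to Rplp0, the log2 ratio of the median gene shifted by 0.17 in C2C12 cells with calcitriol (68.8% of calls higher, against 53.0%). In adipocytes the shift was -0.37 with calcifediol (10.4%, against 49.2%), -0.20 with calcitriol (27.8%, against 53.0%) and 0.38 with olanzapine (78.3%, against 30.6%). Few counts limit Klf15 in C2C12 cells and Klf5 in adipocytes.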

Other observations

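Immediate early genes, which many stimuli switch on quickly, moved both ways in C2C12 cells with the metabolites. Of 12 tested in the edgeR model, 2 rose (Atf3 and Jun) and 5 fell (Egr1, Egr2, Ier2, Ier3 and Myc), where 11.5% of all genes rose and 11.7% fell. In adipocytes and hepatocytes none of them passed, where 0.16% and 0% of all genes did.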
